A study of Mus musculus with 30 samples.

Results

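The second day of a degradation time course was followed by comparing nascent transcription at 48 h directly with that at 24 h, rather than with the 0 h start. The comparison takes in 12 of the 30 samples, which are 6 of the 15 libraries, because every library was sequenced in 2 runs. The members were set by their collection times in the labels, not by any measured value. All cells were mouse embryonic stem cells of a line labelled dTKO, with the genotype Suv39h1fl/fl; Suv39h2-/-; Setdb1fl/fl, grown on gelatin with serum and LIF. The labels give every group, 0 h included, 100 µg/ml auxin together with 0.5 µM dTAG13, compounds that trigger the breakdown of proteins carrying matching degron tags, and collections were made at 0, 3, 12, 24 and 48 h with 3 libraries each. The labels name no tags and do not say which proteins were removed. No untreated cells kept for 24 or 48 h were analysed here, so time in the compounds and time in culture cannot be told apart. RNA made during 10 min with 1 mM 4-thiouridine was purified and sequenced (TT-seq), so the values report ongoing transcription rather than accumulated RNA. Each 110 µg of total RNA carried 1 µg of yeast RNA as a spike-in.

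Setdb1, Suv39h1 and Suv39h2 encode enzymes that methylate lysine 9 of histone H3, a mark of silent chromatin. In embryonic stem cells this mark covers endogenous retroviruses (copies of ancient retroviral genomes, each an internal part flanked by long terminal repeats, or LTRs) and the satellite repeats beside centromeres. The retrovirus MERVL and its LTR MT2_Mm, together with the Zscan4 genes, are normally transcribed in the embryo at the 2-cell stage, and rare cells in stem cell cultures pass through a like state. Transcription of MERVL and of many 2-cell genes is driven by the double homeobox factor Dux.

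Values below are scaled reads, that is, reads per transcription unit divided by the deposited size factor of the library. Each gene, repeat copy, repeat family (all copies of 1 name, summed) or non-coding unit was tested with limma, a moderated linear model. Units tested had a mean of at least 10 scaled reads over all 15 libraries. The words "rose", "fell" or "called" mean a two-sided adjusted p under 0.05. Changes are on the log2(scaled reads + 1) scale, written as 48 h minus 24 h. The 6 libraries held 37.1 to 39.9 M (mega) reads. Signal in genes, leaving out the ribosomal precursor Rn45s, was 14.4, 18.2 and 14.5 M scaled reads at 24 h and 12.9, 13.5 and 13.5 M at 48 h, so 24 h replicate 2 stood above the other libraries of its time. Fewer cells and less RNA per cell cannot be told apart in such bulk samples, and the files do not show if the yeast RNA set the size factors. All results were therefore also computed after rescaling each library to the same median gene, which moved every change up by about 0.28 on the log2 scale. The labels call the libraries of a time biological repeats and give no further source. The p-values measure the spread between libraries of a time, estimated over all 15 libraries and not only the 6 compared.

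On the deposited scale most called genes fell, while the units called over repeats mostly rose. Of 15261 genes tested, 367 rose (2.4% of those tested) and 6202 fell (40.6%), around a median log2 change of -0.28. After rescaling, 3358 rose (22.0%) and 2544 fell (16.7%). No gene was called in opposite directions by the 2 scalings, and 367 genes rose and 2544 fell under both. Rescaling moved every change up by about the same amount, so this nesting was nearly fixed in advance and is no separate support. Leaving out 24 h replicate 2 or 48 h replicate 1 lowered the falls to 2842 and 2948. The median change was -0.08 for 774 repeat families, -0.06 for 13519 single copies and -0.13 for 15730 non-coding units, and became 0.20, 0.20 and 0.15 after rescaling. Repeat copies held 5.57 to 5.94% of the signal off Rn45s at 24 h and 7.97 to 8.28% at 48 h, a share that does not depend on the size factors.

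**Figure D1:**
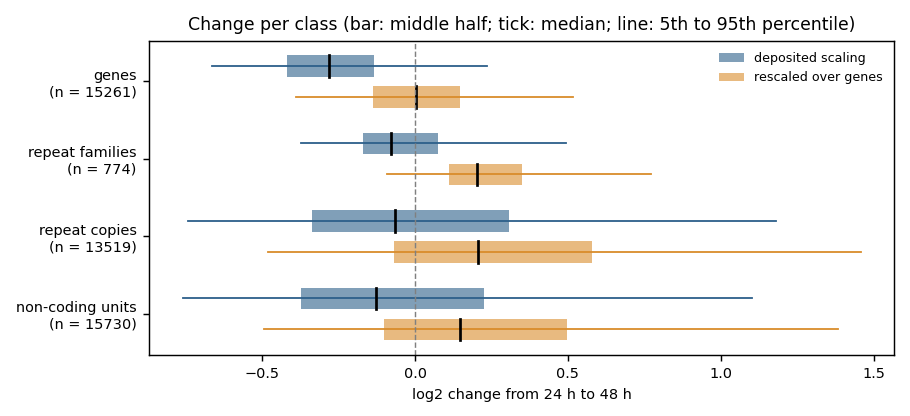
Log2 change from 24 h to 48 h (x axis) for each class of unit, with bars from the 25th to the 75th percentile, black ticks for the medians and thin lines from the 5th to the 95th percentile, on the deposited scale (blue) and after rescaling over genes (orange). The gene median moves from -0.28 to 0.00 and the other 3 classes sit to the right of genes under both scalings.

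Genes of the 2-cell state were among those that rose furthest. Zscan4f (chromosome 7, 11397915-11402318, plus strand), a zinc finger gene that marks the 2-cell-like state, gave 131, 158 and 100.0 scaled reads in the 3 libraries of 24 h and 479, 641 and 586 in those of 48 h. Every 48 h library lay above every 24 h library, and the log2 change was 2.14 (SE 0.17; 5.86e-31 as adjusted p in limma), or 2.42 after rescaling. Its neighbours Zscan4d (chromosome 7, 11161643-11166148, minus strand), Zscan4b (chromosome 7, 10900740-10905050, minus strand) and Zscan4c (chromosome 7, 11005745-11010547, plus strand) rose by 2.07, 2.03 and 1.81, again with no overlap between the times. Zscan4b went from 77.8 ± 15.4 (SD, n = 3) to 317 ± 31.8, and Zscan4c from 74.7 ± 15.1 to 261 ± 18.3. These genes are near-identical copies whose shared reads the authors' counting could split, so their single values are uncertain.

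The promoters of these 4 genes are shown because they carry the same pair of sequence elements at the same spacing. Each line is the 250 bases before the RefSeq start on GRCm38.p6, 5′ to 3′ on the gene's strand. Capitals mark a Dux-type match (TGATT, any 2 bases, then ATCA), which pairs the TGAT and ATCA sites bound by double homeobox factors such as Dux, and the TATA box TATAAA, both searched on either strand. The Dux-type matches of all 4 genes lie on the opposite strand, so the printed letters read TGAT, any 2 bases, then AATCA. The positions are chr7:10905051-10905300 (minus strand), chr7:11005495-11005744 (plus), chr7:11166149-11166398 (minus) and chr7:11397665-11397914 (plus).
Zscan4b: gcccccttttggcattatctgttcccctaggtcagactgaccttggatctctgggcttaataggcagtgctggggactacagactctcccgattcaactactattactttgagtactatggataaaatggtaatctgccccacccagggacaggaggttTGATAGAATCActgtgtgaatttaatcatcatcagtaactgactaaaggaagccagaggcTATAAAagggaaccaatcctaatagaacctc
Zscan4c: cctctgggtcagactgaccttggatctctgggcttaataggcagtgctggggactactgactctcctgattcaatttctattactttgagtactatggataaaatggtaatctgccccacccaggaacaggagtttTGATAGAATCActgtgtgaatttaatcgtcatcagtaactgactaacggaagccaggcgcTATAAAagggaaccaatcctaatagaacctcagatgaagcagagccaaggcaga
Zscan4d: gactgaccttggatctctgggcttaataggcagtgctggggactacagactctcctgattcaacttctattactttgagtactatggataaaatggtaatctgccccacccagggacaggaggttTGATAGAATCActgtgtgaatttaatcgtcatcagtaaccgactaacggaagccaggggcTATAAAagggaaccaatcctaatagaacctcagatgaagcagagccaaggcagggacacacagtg
Zscan4f: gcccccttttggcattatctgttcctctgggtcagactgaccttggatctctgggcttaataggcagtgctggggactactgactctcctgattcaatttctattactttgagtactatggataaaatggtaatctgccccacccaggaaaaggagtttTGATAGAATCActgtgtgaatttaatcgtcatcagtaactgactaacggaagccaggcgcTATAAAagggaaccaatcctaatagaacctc
In every one the TATA box begins 60 bases after the first base of the Dux-type match, which itself begins 91, 114, 125 and 91 bases before the start. At their best ungapped alignment the promoters were 94.7 to 99.6% identical, so they are not independent examples. The Dux-type letters occur in 58 of 32817 RefSeq promoters of this length (0.177%) and TATAAA in 12.4%. Of the 9 tested 2-cell-like genes with a RefSeq promoter, 4 held the Dux-type letters, and the motif TGCACAC, bound by Zscan4 itself and present in 3.67% of promoters, occurred in 0 of the 9. A match is a description of the letters, not a bound site.

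The 2-cell-like list holds 34 genes, of which 19 reached the minimum mean, and 17 rose, with 1 lower. Their median log2 change was 1.99 beside -0.28 for all genes, and 17 rose and 0 fell after rescaling. Silent genes enter this count and median only through later signal. With no minimum 26 of 30 rose and 1 fell, where 2.43% of all 20355 genes rose and 29.0% fell. Several members, the Zscan4 genes among them, are near-identical copies, so these are not counts of independent genes. The steepest were Gm4340 (13.2 to 95.3 scaled reads, log2 change 2.86), the zinc finger gene Zfp352 (17.6 to 123, 2.80) and Zscan4a (10.7 to 63.6, 2.54). Gm5662, which went from 59.0, 60.8 and 51.3 in the libraries of 24 h to 270.3, 345 and 318 in those of 48 h, had the smallest adjusted p of the list (log2 change 2.42, SE 0.18). The deubiquitinase genes Usp17la and Usp17le rose by 1.88 and 1.09, and Tmem92 and the arginase gene Arg2 by 1.86 and 1.66. The exceptions were Zfp750, an epidermal zinc finger gene that fell by 0.48 on the deposited scale, and Pramef8 (-0.25), which did not pass.

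**Figure D2:**
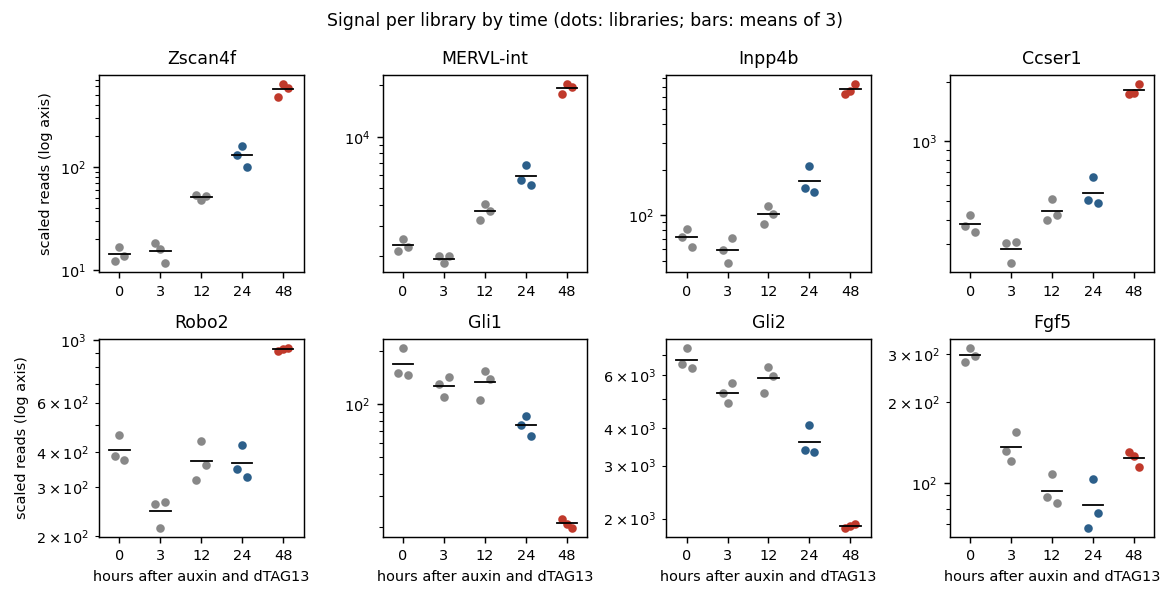
Scaled reads per library (log axis) against hours after auxin and dTAG13 for 7 genes and the MERVL-int family, with dots for libraries (blue at 24 h, red at 48 h, grey at earlier times) and bars for means of 3. Zscan4f, MERVL-int, Inpp4b, Ccser1 and Robo2 stand above, and Gli1 and Gli2 below, every 24 h library at 48 h, while Fgf5 turns upward after its earlier fall.

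Families of the retrovirus MERVL, which belongs to the same programme, rose with these genes, and so did the major satellite. MERVL-int, the internal part of MERVL, gave 5585, 6804 and 5194 scaled reads at 24 h and 17847, 20482 and 19642 at 48 h, a 3.3-fold higher mean (log2 1.73, SE 0.12, limma adjusted p 9.36e-45). Its LTR MT2_Mm, which carries the promoter, went from 2356, 2752 and 2041 to 6494, 7407 and 7427 (1.58, SE 0.12). GSAT_MM, the major satellite that makes up the heterochromatin beside mouse centromeres, went from 3994, 5585 and 4091 to 11521, 11070.2 and 10527 (1.29, SE 0.12). None of these 3 families overlapped between the times. They led the 31 families that rose (4.01% of 774 tested). Another 3 fell (0.388%), each of which lost its call after rescaling, when 331 rose (42.8%) and 0 fell (0.0%) by limma, with 1 lower at an unadjusted p under 0.05. The rises numbered 52 without 24 h replicate 2 but 20 without 24 h replicate 3.

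The other families that rose were mostly LTR retroviruses of class II, the ERVK group. Of the 31, 12 were IAP families, 6 belonged to RLTR13, ERVB4 and RLTR44/45, 4 to MMERVK10C and 3 to ETn and MusD. IAPEz-int, the internal part of intracisternal A particles, gave 43536, 51022 and 42239.9 scaled reads at 24 h and 75245, 84676 and 80530.4 at 48 h (0.82, SE 0.12, limma adjusted p 6.14e-10). MMERVK10C-int, the most abundant family at both times, went from 293185, 352558 and 253878 to 474511, 523369.9 and 486152 (0.73, SE 0.12), and its LTR RLTR10C rose by 0.61. ETnERV3-int rose by 1.12 (2023 to 4374 in the means), RLTR45-int by 0.76 and RLTR13B2 by 0.86. MMETn-int rose by 0.41 (limma adjusted p 0.0192), a call that ended when 24 h replicate 1, 24 h replicate 3, 48 h replicate 2 or 48 h replicate 3 was left out (adjusted p 0.229, 0.147, 0.148 and 0.14 in limma). After rescaling its change was 0.69 with a call.

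Several families that had risen before 24 h gained little after it. RLTR1B-int, of the murine leukaemia virus group, gave 18737, 24007 and 17446 scaled reads at 24 h and 19394, 22208 and 20297 at 48 h, so the times overlapped (0.05, limma adjusted p 0.871). MMERVK9C_I-int was at 8124, 10359 and 7694 and then 8748, 9598 and 9439 (0.10, limma adjusted p 0.78). Their log2 changes from 0 h to 24 h had been 1.34 and 1.49, and the 24 h libraries enter both changes. Both were called higher after rescaling, by 0.34 and 0.38. RLTR13G (0.34) and L1Md_T, a young LINE-1 retrotransposon (-0.17), did not pass, nor did the most abundant SINE families B1_Mus1 (-0.10) and B2_Mm2 (-0.10). After rescaling, RLTR13G was higher by 0.63, and L1Md_T, B1_Mus1 and B2_Mm2 turned to 0.12, 0.18 and 0.19, all with a call.

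Summed over all copies of a group, the signal showed how much of the rise from 0 h fell on the second day. MERVL gave 8981, 10829 and 8150.1 scaled reads at 24 h and 25534, 29233 and 28322 at 48 h, and 78.8% of its rise from 0 h to 48 h came after 24 h. The share was 65.7% for the major satellite, 44.4% for IAP, 41.1% for ETn and MusD and 39.9% for MMERVK10C. It was 9.09% for MMERVK9 and 6.33% for VL30 and MuLV. After rescaling the order stayed, from 82.7% for MERVL to 31.8% for VL30 and MuLV, except that MMERVK10C, IAP and ETn and MusD lay close together at 51.1, 55 and 55.8%. In reads, MMERVK10C gained most, from 315764, 380702 and 274137 to 508384, 561052 and 520612 scaled reads, and made up 26% of all repeat signal at 24 h and 34.7% at 48 h. These shares are descriptions, and differences between groups were not tested.

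**Figure D3:**
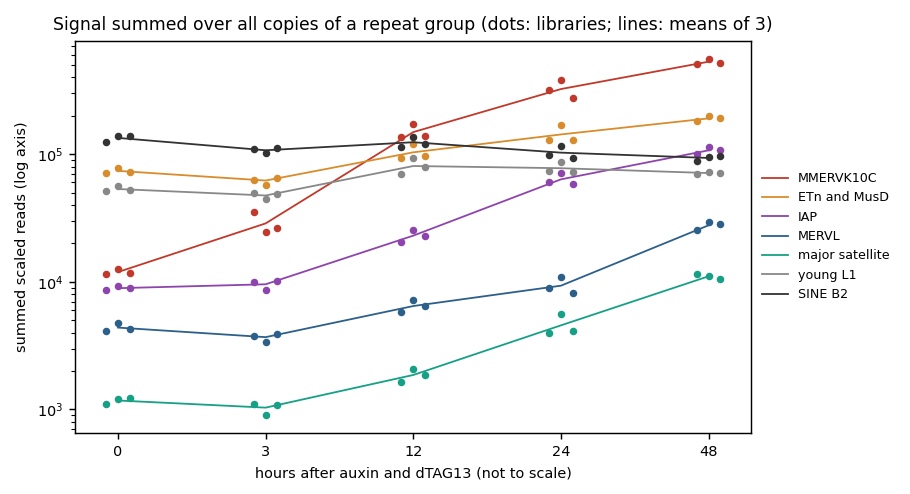
Scaled reads summed over all copies of 7 repeat groups (log axis) at each time, with dots for libraries and lines through means of 3. From 24 h to 48 h the MERVL and major satellite lines rise most steeply (2.97-fold and 2.42-fold), MMERVK10C and IAP rise 1.64-fold and 1.69-fold, and young L1 and SINE B2 lie 0.916 and 0.909 times their 24 h level.

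Single copies gave fewer calls than families, and each held few reads. Of 13519 tested copies 72 rose (0.533%) and 17 fell (0.126%), among them 31 higher of 233 MERVL copies, 15 of 640 ETn and MusD, 9 of 878 MMERVK10C, 6 of 13 major satellite and 5 of 913 IAP copies. The IAP share of rises was close to that of all tested copies, and 3 IAP copies fell. With the spread taken from the 6 libraries of the 2 times alone, 930 copies rose (6.88%) and 50 fell (0.37%), with 303 higher for MMERVK10C, 248 for IAP, 153 for ETn and MusD and 115 for MERVL. The median change of tested copies was 1.61 for MERVL, 1.34 for the major satellite, 0.80 for IAP, 0.73 for MMERVK10C and 0.54 for ETn and MusD, beside -0.06 for all copies. Leaving out any library lowered the 72 rises, most of all to 6 when 24 h replicate 3 was removed and least to 60 when 24 h replicate 2 was. The 31 MERVL calls became 0 to 20. Copies near silence enter these counts and medians through the later time. With the minimum set on the 24 h mean alone, 21 of 204 MERVL copies, 4 of 1005 MMERVK10C copies and 8 of 1379 IAP copies rose. The median changes were then 1.26 for MERVL, 1.28 for the major satellite, 0.71 for IAP, 0.71 for MMERVK10C and 0.50 for ETn and MusD. The count is therefore not a measure of how many copies moved.

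The copies that rose most were an L1_Mur3 copy, an MT2_Mm copy and an IAPEz-int copy. The MT2_Mm copy (chromosome 10, 104151193-104151680, plus strand), which overlaps an exon of the 2-cell gene Gm6763 on the same strand, went from 14.1, 15.9 and 13.3 scaled reads to 131, 135 and 149.8 (3.18, SE 0.59, limma adjusted p 0.0284). The IAPEz-int copy (chromosome 4, 41455133-41456344, plus strand), over an exon of Kif24 on the opposite strand, had no read at 0, 3 or 12 h and went from 10.8, 35.6 and 7.96 to 106, 143 and 149.8 (3.08, limma adjusted p 0.0159). The L1_Mur3 copy (chromosome 13, 65797055-65797748, plus strand), in an intron of the lincRNA Platr2, went from 4.16, 2.81 and 0.885 to 36.9, 41.1 and 37.4 (3.56, limma adjusted p 0.0431). All 3 had no overlap between the times. Leaving out any one library ended the calls of the L1_Mur3 and MT2_Mm copies (limma adjusted p 0.0573 to 0.146), and any one but 24 h replicate 2 ended that of the IAPEz-int copy (0.0653 to 0.0936). The 3 libraries of 24 h held 9 reads of the L1_Mur3 copy, 49 of the MT2_Mm copy and 60 of the IAPEz-int copy in all, so the sizes of these rises are uncertain.

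Non-coding units, stretches of transcription outside the listed genes, separated by the repeat they overlapped. Of 15730 tested, 1646 rose (10.5%) and 2040 fell (13.0%), with 1073 falls when 24 h replicate 2 was left out and 1195 when 48 h replicate 1 was. After rescaling 3118 rose (19.8%) and 729 fell (4.63%). Where the copy with the largest overlap on the same strand was MERVL, 276 of 308 units rose and 6 fell, with a median change of 1.91 beside -0.13 for all units. Of these 308 units 271 had a 24 h mean of at least 10 scaled reads, and 240 of the 271 rose, so the rest of the count came from units that passed through other times. For MMERVK10C 250 of 475 rose, for ETn and MusD 193 of 436, for IAP 271 of 744 and for the major satellite 6 of 6. The IAP count was between 123 and 222 when a library was left out, and the MMERVK10C count was 153 without 24 h replicate 3. Of 10713 units that overlapped no repeat copy, 355 rose and 1495 fell (768 without 24 h replicate 2, 862 without 48 h replicate 1). Such a unit and the copy beneath it share reads or lie side by side, so the 2 classes are not independent.

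By position, calls lower outnumbered calls higher in each group outside LTR copies that is given here. Units of these groups lay over no LTR copy on their strand but could overlap other repeats. Units running divergently from a gene start, the short antisense transcripts of active promoters, fell in 519 of 3157 cases and rose in 23, with a median of -0.27 (-0.28 for genes). This share of falls was 16.4%, beside 13.0% of all non-coding units and 40.6% of genes, although the median change lay near that of genes. At 24 h these units had a median of 32.1 scaled reads, beside 312 for genes. The part of signal in these shares was not tested. Antisense units inside genes fell in 337 of 2473 cases and rose in 86, and distant intergenic units fell in 536 and rose in 213 of 3764. These falls numbered 239, 177 and 290 without 24 h replicate 2, and 258, 203 and 336 without 48 h replicate 1. After rescaling more units rose than fell in each group, 158 against 135 for divergent, 242 against 123 for antisense and 512 against 213 for distant intergenic units.

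**Figure D4:**
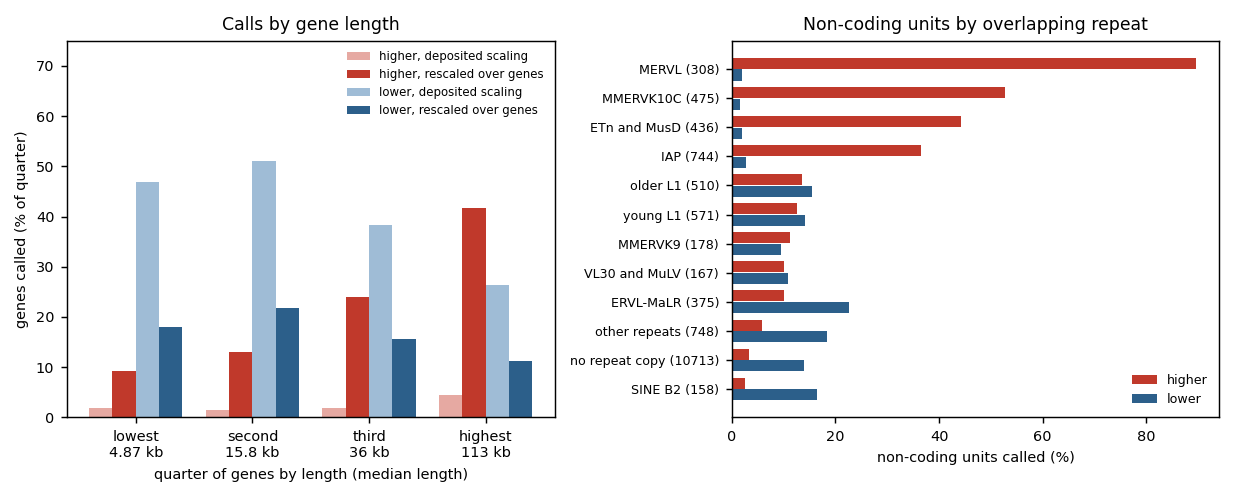
Left, percentage of genes called in 4 equal groups by gene length, with bars for calls higher (red) and lower (blue) on the deposited scale (pale) and after rescaling over genes (dark). Right, percentage of non-coding units called higher (red) and lower (blue) by the repeat group of the copy they overlap most, with units tested in brackets. The group of longest genes has the most rises and the fewest falls under both scalings, and MERVL units rise in 89.6% of cases.

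Of the 3 units named as rising most, 2 lay over the MERVL LTR and the other over a LINE-1 copy. A unit on chromosome 4 (39641801-39647601, minus strand), intergenic and over an MT2_Mm copy, went from 4.99, 5.61 and 3.54 scaled reads to 37.7, 47.3 and 43.6 (2.95, SE 0.38). Its 24 h values all lay below the minimum mean of 10, so it was tested through signal at other times. Another over MT2_Mm (chromosome 10, 52058801-52066801, plus strand), antisense to Ros1 and overlapping an exon of it, went from 6.65, 15.0 and 5.31 to 53.9, 72.8 and 69.5 (2.85). Of its 24 h values, 6.65 and 5.31 lay below 10 as well, so the sizes of both rises are uncertain. An intergenic unit over an L1Md_F2 copy (chromosome 3, 60835601-60851001, minus strand) went from 24.1, 35.6 and 26.5 to 195, 206 and 216 (2.82). Of the 3 that fell most, all without a repeat copy, the one 38538 bp from Sulf2 (chromosome 2, 166194201-166201401, plus strand) went from 20.8, 24.3 and 17.7 to 3.69, 7.75 and 5.35 (-1.77). The others fell by 1.86 (antisense in an intron of Dgkg, chromosome 16, 22637601-22642201) and by 1.78 (chromosome 4, 125927001-125931401), the last with no call without 48 h replicate 2 (limma adjusted p 0.0629).

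The 12 largest rises were taken among genes outside the lowest 25% by signal, called under both scalings without overlap. Genes with a Gm number, a Rik ending or a clone or accession name as symbol were left out. The 12 were 4 Zscan4 genes and Inpp4b, Abcb5, Slc14a2, Ccser1, Chrm3, Mir466f-1, Epm2a and Robo2. Genes that this rule left out also rose steeply, such as Gm2016 (2.48) and AA792892 (2.12), both chosen after their values were seen. Inpp4b (chromosome 8, 81342562-82127917, plus strand), encoding a phosphatase of phosphoinositide signalling, gave 150.5, 212 and 143 scaled reads at 24 h and 623, 658 and 734 at 48 h (2.01, SE 0.15, limma adjusted p 5.72e-39). Ccser1 (chromosome 6, 61180325-62382863, plus strand) went from 505, 656 and 486 to 1728, 1755 and 1958 (1.73), and Chrm3 (chromosome 13, 9876613-10360803, minus strand), a muscarinic acetylcholine receptor gene, from 199, 252 and 219 to 544, 677 and 682 (1.5). In these 3 genes every 48 h library was more than 2 times the highest 24 h library.

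Robo2 (chromosome 16, 73892306-74410912, minus strand), encoding a receptor for the guidance cue Slit, moved on the second day. It gave 348, 425 and 326 scaled reads at 24 h, near its 0 h mean of 407, and 919, 927 and 941 at 48 h (1.35, SE 0.13, limma adjusted p 3.76e-22). Its change from 0 h to 24 h was -0.16 and did not pass. Slc14a2, a urea transporter gene, behaved alike, at 49.0, 67.4 and 46.0 and then 188, 177 and 216 (1.84), with 0.34 from 0 h to 24 h, which did not pass either. Abcb5, an ABC transporter gene, rose by 1.93 (64.2 to 249.6) after 0.47. Epm2a, which encodes the glycogen phosphatase laforin, rose by 1.36, and Mir466f-1, a microRNA gene listed with a span of several copies, by 1.42. The 24 h libraries enter both changes of each gene, and the difference between the 2 days was not tested.

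Gene length went with the direction of change across all genes. The 367 genes that rose had a median length of 51440 bp, the 6202 that fell 17942 bp, and all tested genes 23921 bp. In 4 equal groups from the shortest to the longest genes the share that fell was 46.9, 51.0, 38.3 and 26.4%, and the share that rose after rescaling was 9.22, 13.1, 24.1 and 41.6%. The median change in these groups was -0.35, -0.33, -0.26 and -0.18. The falls numbered 920, 902, 595 and 425 without 24 h replicate 2, or 893, 966, 628 and 461 without 48 h replicate 1. The length groups also differed in signal, with medians of 102, 296, 603 and 882 scaled reads at 24 h. In 4 equal groups by mean signal, from low to high, the share of the longest genes that rose after rescaling was 26.2, 36.3, 41.5 and 49.2%. For the shortest genes it was 6.98, 7.87, 12.1 and 23.7%, and for genes of any length 12.6, 15.2, 20.4 and 39.8%. The part of signal in the pattern by length was not tested.

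Genes that start beside a copy that rose were few. Copies counted here were the 72 called higher and those called both with the 6 libraries alone and after rescaling, 284 in all. Of 38 tested genes whose start lay within 10000 bp of such a copy, 10 rose (26.3%) and 4 fell, beside 357 and 6198 of the other 15223. Among the 10 were Gm4340, Sp110 (31.7 to 109.5 scaled reads, 1.76) and Sp140 (0.89), which encode nuclear body proteins, the lectin receptor gene Cd209c (1.18) and the acetyltransferase-like genes Nat8f3 and Nat8f2 (1.51 and 1.00). A transcript that runs from a copy into a gene can add reads to both, so this count gives a location and no more.

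Gli1, a gene of the hedgehog pathway, fell furthest among the named genes. In this pathway Ptch1 is a receptor, Smo passes the signal on, Gli2 and Gli3 are the main transcription factors, and Gli1 and Ptch1 are themselves targets that report its activity. Gli1 (chromosome 10, 127329882-127341579, minus strand) gave 76.5, 86.1 and 66.3 scaled reads at 24 h and 22.2, 20.9 and 19.9 at 48 h (-1.81, SE 0.16, limma adjusted p 3.27e-26). Gli2 (chromosome 1, 118834061-119053619, minus strand) went from 3386, 4077 and 3323 to 1869, 1891 and 1918 (-0.92, SE 0.12). Ptch1 fell by 0.62, and all 3 of these calls held after rescaling (-1.53, -0.63 and -0.34). Of 14 tested pathway genes 5 fell and 0 rose, among them Kif7 (-0.39; no call when 24 h replicate 2, 48 h replicate 1 or 48 h replicate 2 was left out, with adjusted p 0.185, 0.0628 and 0.133 in limma), with a list median of -0.24 beside -0.28 for all genes. This was a smaller share than the 40.6% of all genes that fell. Gli3 (0.12), Smo (-0.21), Sufu (-0.24) and the co-receptor genes Boc (-0.14) and Cdon (-0.05) did not pass. After rescaling 3 genes were higher, Gli3, Cdon and Dhh.

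Other genes with large falls came from varied functions. Rasgrp1 (chromosome 2, 117279993-117342877, minus strand), an activator of Ras, went from 62.3, 84.2 and 69.9 scaled reads to 18.5, 21.7 and 25.2 (-1.68, SE 0.16). Aoah (chromosome 13, 20794113-21024254, plus strand), encoding an enzyme that inactivates bacterial lipopolysaccharide, went from 313, 336 and 266 to 117, 112 and 118 (-1.38, limma adjusted p 8.23e-24), after a change of -2.09 from 0 h to 24 h. Nphs1, the nephrin gene, fell by 1.39 (209 to 79.0), Ephx2, encoding soluble epoxide hydrolase, by 1.19, and the transcription factor genes Foxn4 and Pou2f2 by 1.21 and 1.18. Ttyh1 (201, 252 and 227 to 93.1, 103 and 88.6, -1.24) and Mobp, a myelin gene (-1.20), had been higher at 24 h than at 0 h by 0.40 and 0.48. Gdpd4 and Sytl3 fell by 1.41 and 1.22. The 12 largest falls and the 12 largest rises all remained called when any one library was removed, and rescaled calls were part of the rule that chose them.

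Several ligand genes of the NODAL, activin and TGF-beta pathways fell. Inhbb (chromosome 1, 119415465-119422248, minus strand), which encodes an activin subunit, went from 53.2, 48.7 and 58.4 scaled reads to 22.2, 22.5 and 21.4 (-1.24, SE 0.17). Lefty1 and Lefty2, feedback inhibitors of NODAL, fell by 0.84 and 0.58, Nodal itself by 0.46, Tgfb1 by 0.70 and the receptor gene Acvr2b by 0.50. Of 28 tested genes 8 fell and 0 rose (median -0.15), a smaller share of falls than the 40.6% of all genes, and 13 rose and 6 fell after rescaling, so the split of this list depended on the scaling while the 6 genes just named fell under both. The SMAD genes Smad2 (-0.08), Smad3 (-0.17) and Smad4 (-0.12) did not pass on the deposited scale and were higher after rescaling.

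Genes of the amino acid stress response, which the factor Atf4 drives, mostly fell. Of 23 tested genes 18 fell and 0 rose, with a median change of -0.45, and after rescaling 13 fell and 1 rose. Of all genes 40.6% fell, and 16.7% after rescaling. The falls numbered 13 without 24 h replicate 2 and 14 without 48 h replicate 1 or 48 h replicate 3. Trib3, a pseudokinase that feeds back on Atf4, went from 255, 324 and 241 scaled reads to 165, 187 and 131 (-0.76, SE 0.13, limma adjusted p 1.19e-06). Chac1, which degrades glutathione, went from 305, 376 and 303 to 220.1, 221 and 170.4 (-0.69). Vldlr, a lipoprotein receptor gene, fell by 0.76 and Gpt2, a mitochondrial transaminase gene, by 0.62. The serine synthesis genes Psat1 and Phgdh (-0.50 and -0.45) and the transporter genes Slc7a5 and Slc7a11 (both -0.49) fell as well. Atf4 itself was at -0.29, close to the median gene (limma adjusted p 0.0428, but 0.0576 to 0.172 when any library but 24 h replicate 3 was left out, and no call after rescaling), and Asns (-0.19) and Atf3 (0.21) did not pass.

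The promoters of Chac1 and Vldlr are shown because both fell and both hold the element that Atf4 and its partners of the C/EBP family bind. Capitals mark TGATGNAA, searched on either strand in the 250 bases before the RefSeq start (chr2:119350992-119351241 and chr19:27216770-27217019 on GRCm38.p6, both plus strand).
Chac1: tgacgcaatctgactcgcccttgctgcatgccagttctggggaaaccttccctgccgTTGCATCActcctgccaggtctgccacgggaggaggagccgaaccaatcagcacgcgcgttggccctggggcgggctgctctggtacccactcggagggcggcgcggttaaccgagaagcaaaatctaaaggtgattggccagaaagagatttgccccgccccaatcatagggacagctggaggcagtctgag
Vldlr: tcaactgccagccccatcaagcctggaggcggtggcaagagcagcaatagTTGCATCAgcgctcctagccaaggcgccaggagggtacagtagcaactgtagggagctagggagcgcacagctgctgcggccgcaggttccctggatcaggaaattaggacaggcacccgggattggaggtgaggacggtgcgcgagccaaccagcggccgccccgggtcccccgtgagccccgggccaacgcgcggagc
The matches lie on the opposite strand, beginning 193 and 200 bases before the start. The letters occur in 6 of 21 promoters of the list that RefSeq gives (28.6%) and in 3.45% of all 32817 promoters. The 6 are Asns, Chac1, Atf3, Slc7a11, Vldlr and Nupr1, of which 4 fell. Trib3 and Phgdh hold TATAAA and no such match in this window.

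Other metabolic and housekeeping lists had medians from -0.25 to -0.39, beside -0.28 for all genes, of which 40.6% fell on the deposited scale and 22.0% rose and 16.7% fell after rescaling. For cholesterol synthesis, 14 of 21 genes fell and 0 rose (median -0.37), and 9 fell and 0 rose after rescaling. They included Mvk (171 to 102 scaled reads, -0.74), Fdps (-0.63), Lss (-0.58) and the regulator gene Srebf2 (-0.44). Of 35 RNA polymerase II and elongation genes 24 fell and 0 rose (median -0.39), with 12 lower and 8 higher after rescaling. The fallers under both scalings included Nelfe (-0.73), a subunit of the pausing factor NELF, and the polymerase subunits Polr2f, Polr2e and Polr2c (-0.66, -0.66 and -0.61). Cell cycle genes fell in 19 of 31 cases (median -0.33), ribosome biogenesis genes in 17 of 30 (-0.34) and glycolysis genes in 14 of 21 (-0.34), and 0 rose in each list on the deposited scale. After rescaling 4 rose and 9 fell for the cell cycle, 2 rose and 8 fell for ribosome biogenesis, and 4 rose and 3 fell for glycolysis. Cytosolic ribosomal protein genes fell in 20 of 80 cases (-0.25) and 20 were higher and 1 lower after rescaling.

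These counts of falls leaned on 2 libraries. Without 24 h replicate 2 or 48 h replicate 1 the falls were 9 and 9 for cholesterol synthesis, 14 and 12 for polymerase II, 7 and 5 for the cell cycle, 8 and 7 for ribosome biogenesis, 6 and 2 for glycolysis, and 2 and 1 for ribosomal proteins. Other lists touched by these libraries were clustered protocadherin genes (18 of 30 lower, 0 and 0 without them), heterochromatin and silencing factors (15 of 32, 6 and 5), replication-dependent histone genes (10 of 64, 7 and 4), and heat shock genes (6 of 20, 4 and 2). After rescaling none of the 18 protocadherin falls was still called, and 8 other genes of that list were called higher. The rescaled calls were 8 higher and 3 lower for histone genes, 6 and 6 for silencing factors, and 5 and 3 for heat shock genes. Without 24 h replicate 3 the falls were more for ribosomal proteins (37) and heat shock genes (10). In the lists that gave 0 rises with limma, edgeR on recovered reads also gave 0. At an unadjusted p under 0.05 limma gave 2 rises for primitive endoderm, 1 for the NODAL, BMP and TGF-beta list and 1 for ERK feedback, and 0 for the rest. Protocadherin genes of the gamma cluster share exons, so their values repeat each other.

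Several pluripotency genes, Pou5f1 among them, fell under both scalings. Of 22 tested genes of the naive state 10 fell and 0 rose (median -0.26, near the -0.28 of all genes), and 8 fell and 4 rose after rescaling. Of all genes 40.6% fell, and 16.7% after rescaling. Without a library the falls numbered 9 to 12. Pou5f1 (chromosome 17, 35506032-35510777, plus strand), the gene of Oct4, went from 766, 853 and 676 scaled reads to 437, 485 and 462 (-0.72, SE 0.13, limma adjusted p 1.03e-06), and remained lower after rescaling (-0.44). The transcription factor genes Tfcp2l1, Nr0b1, Esrrb and Nr5a2 and the growth factor gene Fgf4 fell by 0.64, 0.67, 0.44, 0.42 and 0.56 and were also lower after rescaling. Nanog (1071 and 1005, -0.08), Sox2 (-0.27) and Zfp42 (-0.26) did not pass. All 22 listed stem cell markers passed the minimum signal.

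Genes of other lineages gave few calls on the deposited scale and more rises than falls after rescaling. Fgf5, a growth factor gene of the primed epiblast, gave 68.2, 103 and 77.0 scaled reads at 24 h and 130.0, 125 and 115 at 48 h, a change of 0.59 (SE 0.15, limma adjusted p 0.000707) after one of -1.86 from 0 h to 24 h. Lef1, a WNT pathway factor gene, rose by 0.42 (1770.0 to 2343) and the neural crest factor gene Pax3 by 0.58. Of 15 formative and primed epiblast genes 2 rose and 3 fell (median -0.10), and of 12 germ layer regulators 1 rose and 2 fell (-0.12). The epiblast falls included Zic2 and Sox3 (limma adjusted p 0.00919 and 0.0132), and the germ layer falls were Fgf8 and T (0.00684 and 0.0146). The epiblast falls went to 0 without 24 h replicate 2, and so did those of the germ layer list without 48 h replicate 1. Among 14 trophectoderm genes (median 0.04) Gata3 rose by 0.68 with overlapping libraries (44.9, 72.0 and 37.2 and then 70.2, 87.5 and 83.3) and Krt18 by 0.36, while Tfap2c and Fgfr2 fell by 0.66 and 0.56. In limma the call of Krt18 ended when 24 h replicate 3, 48 h replicate 2 or 48 h replicate 3 was removed (adjusted p 0.169, 0.131 and 0.055). Of 13 primitive endoderm genes (median 0.08) Lama1 and Hnf4a fell, by 0.56 and 0.90, and 0 rose, but 3 rose without 24 h replicate 2. After rescaling 6 rose and 0 fell in the epiblast list, 4 and 0 in the germ layer list, 6 and 2 in the trophectoderm list and 7 and 2 in the primitive endoderm list, where 22.0% of all genes rose.

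Markers of fibroblasts were followed as a check on other cells. Of 9 tested of 10 listed (median 0.35), 3 rose, namely Col3a1 (24.9, 43.0 and 30.1 to 53.9, 71.3 and 83.3 scaled reads, 1.08), Acta2 (0.83) and Col1a2 (0.78), which encode collagens and smooth muscle actin. Thy1 fell by 0.99 at 7.05 and 4.08 mean scaled reads, a call that ended without 48 h replicate 3 (limma adjusted p 0.382), and Col1a1, Pdgfrb, Lum, Dcn and Twist1 did not pass. The summed signal of the 10 genes was 470 to 600 scaled reads at 24 h and 607 to 841 at 48 h, and none of the 9 tested was at 0. The part of such cells in any result was not tested.

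**Figure D5:**
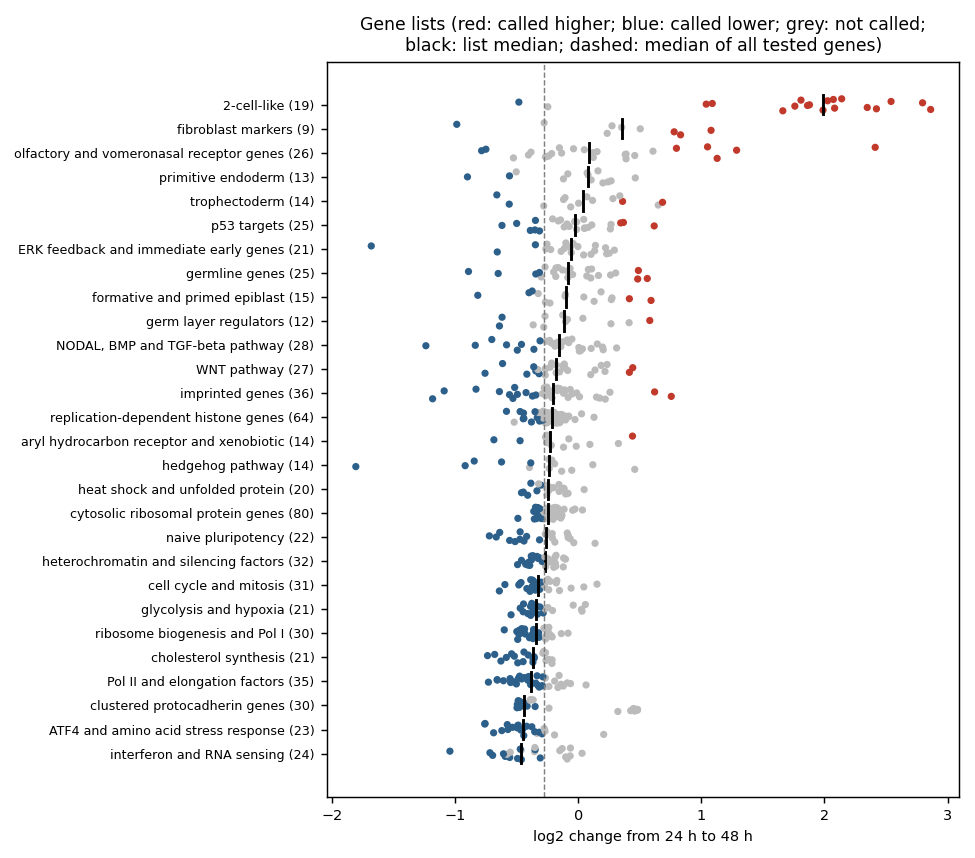
Log2 change from 24 h to 48 h of every tested member of 28 gene lists (dots, red for called higher, blue for called lower, grey for not called), with list medians in black, tested members in brackets and the median of all genes (-0.28) as a dashed line. The 2-cell-like list, with a median of 1.99, lies apart from the other lists, whose medians run from -0.46 to 0.35.

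Stress, germline and imprinted lists split between rises and falls. Of 25 p53 targets 3 rose and 6 fell (median -0.03), while 18 rose and 1 fell after rescaling. Among all genes 2.4% rose and 40.6% fell, and 22.0% rose and 16.7% fell after rescaling. The death receptor gene Fas rose by 0.62 (23.4 to 36.7 scaled reads), with no call in limma when 24 h replicate 3, 48 h replicate 1 or 48 h replicate 2 was removed (adjusted p 0.102, 0.0986 and 0.106). Gdf15 fell by 0.62, and Cdkn1a (0.05) and Mdm2 (0.11) did not pass. The list's 3 rises went to 0 without 24 h replicate 3 or 48 h replicate 2, its 6 falls to 1 without 24 h replicate 2 or 48 h replicate 1. For interferon and RNA sensing 12 of 24 fell and 0 rose (median -0.46), beside 40.6% of all genes that fell, with 7 lower and 1 higher after rescaling and 7 to 12 lower without a library. Mavs, an adaptor of viral RNA sensors, went from 192, 239 and 204 to 143, 139 and 132 (-0.61), Irf3 and Irf9 fell by 0.70 and 0.59, and Eif2ak2, a sensor of double-stranded RNA, by 0.56.

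Among 25 germline genes Dazl, an RNA-binding protein gene of germ cells, rose by 0.56 (235, 312 and 227 to 374, 381 and 377 scaled reads) and Brdt by 0.48, the last with no call without 24 h replicate 3 (limma adjusted p 0.104). Stra8, a gene of meiotic entry, fell by 0.89 (180.4, 225 and 171 to 97.5, 105 and 105), and 3 rose and 4 fell in all (median -0.09), or 10 rose and 2 fell after rescaling. Without 24 h replicate 3 only 1 rose, and without 24 h replicate 2, 48 h replicate 1 or 48 h replicate 2 there were 2 falls. Of 36 imprinted genes 2 rose and 11 fell (7 without 24 h replicate 2, median -0.20), and 13 rose and 7 fell after rescaling. For these lists too, the shares over all genes were 2.4% higher and 40.6% lower, or 22.0% and 16.7% after rescaling. Peg10, itself derived from a retrotransposon, went from 2744, 3289 and 2517 to 4289.9, 4625 and 4159 (0.62) and the growth factor gene Igf2 from 81.5, 83.3 and 69.0 to 126, 139 and 129.9 (0.76). The growth inhibitor genes Cdkn1c and Phlda2 fell by 1.18 and 1.09, and Smoc1 by 0.83 (1597 to 893). Of 26 tested olfactory and vomeronasal receptor genes, out of 257 listed, 5 rose and 2 fell (median 0.08), or 9 and 1 after rescaling. Vmn2r94 went from 9.14, 11.2 and 7.08 to 53.9, 55.0 and 48.1 (2.41) and Vmn2r96 from 167, 241 and 148 to 356, 418 and 358 (1.05), and these genes too have near-identical copies.

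The remaining lists gave few calls on the deposited scale. Among all genes 2.4% rose and 40.6% fell, and 22.0% rose and 16.7% fell after rescaling. Of 27 WNT pathway genes 2 rose and 6 fell (median -0.18), a smaller share of falls, and 11 rose and 3 fell after rescaling. Those that fell as deposited included the receptor gene Fzd5 (-0.76). Leaving out a library other than 24 h replicate 2 left 1 rise, and the falls were 2 without 24 h replicate 2, 3 without 48 h replicate 1 and between 4 and 9 otherwise. Of 21 ERK feedback genes (median -0.06) 3 fell, among them the transcription factor gene Etv4 (-0.66), and 0 rose on the deposited scale, while 10 rose and 2 fell after rescaling. Of 14 genes of the aryl hydrocarbon receptor and xenobiotic response (median -0.23) 1 rose, Tiparp (0.44), and 2 fell, the glutathione transferase genes Gstm1 (-0.69) and Gsta4 (-0.47), with 6 lower without 24 h replicate 3. After rescaling 4 of the 14 rose and 2 fell.

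Of the genes of the 3 methyltransferases named in the genotype, 2 fell on the deposited scale and 1, Setdb1, after rescaling. Setdb1 (chromosome 3, 95323525-95357202, minus strand) gave 945, 1071 and 891 scaled reads at 24 h and 689.8, 782 and 726 at 48 h (-0.40, SE 0.13, limma adjusted p 0.00726), a call that ended without 48 h replicate 1 (0.0603), and was at -0.12, still a call, after rescaling (0.0385). Suv39h2 (chromosome 2, 3455815-3474986, minus strand) was at -0.35 (limma adjusted p 0.0197), and lost the call after rescaling or when 24 h replicate 2, 48 h replicate 1 or 48 h replicate 3 was removed (0.109, 0.116 and 0.0728). Suv39h1 (chromosome X, 8061171-8074760, minus strand, -0.28) did not pass and was at 0.00 after rescaling. The compounds act on protein, so these levels do not check the time labels. Rn45s, the precursor of ribosomal RNA, was at -0.36 (limma adjusted p 0.0466), a call that held only without 24 h replicate 1 (0.0471) among the fits that left out 1 library (the others gave 0.0653 to 0.136), and at -0.08 without a call after rescaling.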

How the data were processed

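Per the submitters' processing notes, the tools used on the TT-seq reads included STAR 2.5.2a, DESeq2 and deepTools, and the build was mm10 (GRCm38). The deposited values are signal per transcription unit, made by the authors as whole reads divided by 1 size factor per library. At least 99.9974% of nonzero values per library were whole multiples of its step (tolerance 0.05), so reads were recovered, 37.1 to 42.3 M per library. Counter, strand setting and handling of multiply mapped reads: not given in the sources used here. A further deposited table of averages was not used here.

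Each class (genes, families, copies, non-coding units) was tested on its own with limma 3.58.1 (trend) in R 4.3.3 on log2(signal + 1), with all 15 libraries in 1 fit and Benjamini-Hochberg adjustment at 0.05. Alternatives were rescaling over genes (median of ratios without Rn45s), TMM, the 6 libraries alone, no trend, pseudocounts 0.5 and 5, no minimum, a minimum of 10 at 24 h alone or of 50, a replicate block, edgeR 4.0.16 on recovered reads and leaving out each library. The test was tried on simulated data. The named genes were the 12 largest rises and falls by a rule, up to 4 per list, and the 3 methyltransferases and Rn45s. The rule took genes called under both scalings without overlap, outside the lowest 25% by signal and with an ordinary symbol. Symbols of Gm with digits, those ending in Rik and clone or accession names were left out. Other list members named were chosen after their values were seen. Comparisons, lists and members were chosen with earlier results of these data known. Families, copies and non-coding units followed the same rule without the symbol and signal conditions (5, 3 and 3 per direction, with the most abundant family of each group). Replicate numbers did not pair the libraries. One list member's own values are not reported here.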

Additional observations from a re-analysis of the deposited data

How the results depend on the processing

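Whether rises or falls prevailed among genes changed with the scaling. In the order genes, copies, families and non-coding units, calls higher were 3358, 444, 331 and 3118 after rescaling, 2942, 383, 281 and 2951 with TMM, and 3284, 239, 294 and 2516 with rescaling and without 24 h replicate 2, a setting added after seeing the data. Calls lower under these 3 settings were 2544, 3124 and 2415 for genes, 729, 814 and 703 for non-coding units, 0, 0 and 0 for families (limma; 3 as deposited), and 8 for copies under the last. A minimum mean of 50 gave 242 genes and 792 non-coding units higher and 6 families lower. The 6 libraries alone gave 930 copies higher, 50 copies lower and 2471 non-coding units higher. Copies higher and lower were 678 and 106 with a pseudocount of 5, 1030 and 112 with no minimum, and 209 and 31 with edgeR on recovered reads, and 33 were higher with a pseudocount of 0.5. Without the trend 0 families were lower. The other counts stayed within 1.5 times those as first given. Why the counts moved was not tested.

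With each library left out in turn, calls higher ran from 255 to 520 for genes, 6 to 60 for copies, 20 to 52 for families and 1123 to 1617 for non-coding units. Calls lower ran from 2842 to 7022, 2 to 6, 0 to 2 and 1073 to 1915. The replicate block gave 8 families lower and otherwise stayed within 1.5 times those counts of calls, with 406 genes higher and 6985 lower; deviations of same-numbered libraries correlated by 0.01, -0.01 and 0.00, so the numbers are names only.

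The named units below turned their sign under some settings; on the deposited scale Suv39h1, Ier2 and Gclc were at -0.28, -0.26 and -0.26. After rescaling, with TMM, and with rescaling and without 24 h replicate 2, B1_Mus1 was at 0.18, 0.16 and 0.17, B2_Mm2 at 0.19, 0.17 and 0.17, ID_B1 at 0.10, 0.075 and 0.10, MIR at 0.13, 0.11 and 0.14, L1_Mus3 at 0.20, 0.18 and 0.21, RMER15 at 0.24, 0.22 and 0.26, MMSAT4 at 0.18, 0.15 and 0.23, L1Md_T at 0.12, 0.093 and 0.078, and Gclc at 0.027, 0.0030 and 0.036. Suv39h1 was at 0.0047 and 0.035 in the first and last of these settings and Ier2 at 0.021 in the first. With 1 library left out, L1_Mus3 ran from -0.15 to 0.037, RMER15 from -0.12 to 0.089 and MMSAT4 from -0.19 to 0.053, each highest without 24 h replicate 2, and RLTR1B-int from -0.042 to 0.19. Of 166 named results 147 were called, and 20 of the calls ended after rescaling. Depth was lowest for single copies, where the 3 largest rises rested on 9, 49 and 60 reads over the 24 h libraries.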
